A study of Mus musculus with 4 samples.

Results

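Barcodes that held insulin transcripts together with glucagon, somatostatin or pancreatic polypeptide transcripts were described in 4 single-cell RNA libraries of mouse islets. A barcode is the tag that marks the transcripts of 1 droplet, and a unique molecular identifier (UMI) marks 1 captured transcript, so that counts are of molecules. Barcodes were kept with at least 200 detected genes, with no upper limit, and at most 12% of UMIs from mitochondrial genes. A barcode was chosen when *Ins1* and *Ins2* together made up at least 2% of its UMIs and at least 1 of *Gcg*, *Sst* and *Ppy* made up at least 1%. By this rule 563 of 9027 kept barcodes, from 12571 in all, were chosen, which was 6.24% (5.75 to 6.76) with the exact binomial 95% interval in brackets, as for all shares below. The barcodes were thus chosen by their hormone shares, which are given as a description. The filter in the study's methods also had an upper limit on detected genes, to remove doublets. With at most 4000 genes, 288 barcodes were chosen, and 275 of the 563, 48.8% (44.6 to 53.1), lay over that limit.

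Islets were from adult male C57BL6/J mice (C57BL/6 in the labels) and were pooled before they were divided, so that the libraries share their animals. They were left untreated or exposed ex vivo for 6 h to IL-1B, to IFNg, or to IL-1B and IFNg, and then dissociated. Each condition was 1 library, so that no difference between conditions had a replicate check, no test was run, and all intervals cover counting error only. Kept barcodes numbered 2364 without treatment, 2164 with IL-1B, 2467 with IFNg and 2032 with both. Their median depth was 19272 UMIs without treatment, 7722 with IL-1B, 10417 with IFNg and 11786 with both, so the untreated library was the deepest. Of the kept barcodes, 23 carried a tag sequence that also occurred in another library, and none of these was chosen.

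Islet endocrine cells are classed by the hormone they store: β-cells make insulin, α-cells glucagon, δ-cells somatostatin and PP-cells pancreatic polypeptide. Each identity is held by transcription factors, such as Mafa and Nkx6-1 in β-cells, Irx2 in α-cells and Hhex in δ-cells. Cells with more than 1 hormone are known from the developing pancreas, and in droplet methods a pair of cells caught under 1 barcode also gives the transcripts of both. The number of cells behind a barcode was not measured, and its part in the values below was not tested. Depth, detected genes and identity genes are given for each hormone pair.

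The hormone genes lie on separate chromosomes (GENCODE M21, GRCm38). *Ins1* is at chr19:52264297-52265476, *Ins2* at chr7:142678656-142743381, *Gcg* at chr2:62474530-62483650, *Sst* at chr16:23889573-23890958 and *Ppy* at chr11:102099930-102101319, and all are protein-coding. *Pyy*, which encodes the related peptide YY, lies at chr11:102106676-102107832, on the same strand as *Ppy* with 5356 bases between the genes. Promoters of 4 of these 5 hormone genes were found in the RefSeq table (GRCm38.p6). The 250 bases before each RefSeq start are shown because transcripts from these promoters meet in the chosen barcodes. RefSeq and GENCODE starts can differ, and the *Sst* window overlaps the GENCODE span of *Sst* given above. Capitals mark TAAT on either strand, the core bound by homeodomain factors such as Pdx1 and Nkx6-1, and TGACGTCA, the cyclic AMP response element, which reads the same on both strands and does not contain TAAT. *Ins1* is chr19:52264047-52264296 on the plus strand, and *Gcg* (chr2:62483654-62483903), *Sst* (chr16:23890845-23891094) and *Ppy* (chr11:102101320-102101569) are on the minus strand.
Ins1: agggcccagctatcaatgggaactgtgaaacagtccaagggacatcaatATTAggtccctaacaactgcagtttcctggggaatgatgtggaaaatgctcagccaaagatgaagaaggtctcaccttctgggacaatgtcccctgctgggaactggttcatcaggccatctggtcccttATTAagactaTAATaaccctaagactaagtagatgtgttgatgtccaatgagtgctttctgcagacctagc
Gcg: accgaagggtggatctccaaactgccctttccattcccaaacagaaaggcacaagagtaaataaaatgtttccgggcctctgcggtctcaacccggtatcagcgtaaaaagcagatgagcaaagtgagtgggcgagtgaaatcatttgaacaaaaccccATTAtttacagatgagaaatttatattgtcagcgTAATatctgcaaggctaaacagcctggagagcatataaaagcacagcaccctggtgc
Sst: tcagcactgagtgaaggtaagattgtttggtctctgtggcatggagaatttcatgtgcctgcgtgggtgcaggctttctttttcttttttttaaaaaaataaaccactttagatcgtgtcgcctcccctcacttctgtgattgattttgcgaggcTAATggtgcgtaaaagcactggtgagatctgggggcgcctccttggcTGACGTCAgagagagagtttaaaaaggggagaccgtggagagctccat
Ppy: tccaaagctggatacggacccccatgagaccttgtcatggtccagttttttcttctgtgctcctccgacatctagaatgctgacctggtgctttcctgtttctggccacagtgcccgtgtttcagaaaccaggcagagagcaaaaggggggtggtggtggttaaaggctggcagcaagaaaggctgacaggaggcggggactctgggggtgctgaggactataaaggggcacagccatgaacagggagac

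The *Ins1* window held 3 matches of TAAT, *Gcg* 2, *Sst* 1 and *Ppy* 0, where 54.9% of 32851 RefSeq promoter windows of the same length hold at least 1. The *Sst* window also held TGACGTCA, its first base 48 bases before the RefSeq start, which 1.55% of promoters hold. A match describes the letters and not binding.

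The chosen barcodes made up a similar share of each library. There were 160, or 6.77% (5.79 to 7.86), without treatment, 148, or 6.84% (5.81 to 7.99), with IL-1B, 125, or 5.07% (4.23 to 6.01), with IFNg and 130, or 6.40% (5.37 to 7.55), with both. The intervals of the 4 libraries overlapped. By hormone pair, 212 held insulin and *Gcg*, 100 insulin and *Sst*, 129 insulin and *Ppy*, and 122 insulin with 2 or 3 of the others. The pairs are called Ins+Gcg, Ins+Sst and Ins+Ppy, and are set beside 5842 barcodes with insulin only, 842 with *Gcg* only, 173 with *Sst* only and 163 with *Ppy* only. Ins+Gcg barcodes numbered 47 without treatment, 69 with IL-1B, 36 with IFNg and 60 with both. In the same order Ins+Sst barcodes numbered 27, 31, 18 and 24, and Ins+Ppy barcodes 44, 22, 39 and 24. Ins+Gcg was the most frequent pair in the untreated, IL-1B and combined libraries, and Ins+Ppy with IFNg.

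Seen from the second hormone, the share with insulin was highest in the untreated library. Of barcodes with at least 1% *Gcg*, 35.1% without treatment, 16.6% with IL-1B, 10.8% with IFNg and 25.1% with both also passed the insulin limit. For *Sst* the shares were 38.2% without treatment, 18.8% with IL-1B, 13.5% with IFNg and 20.3% with both. For *Ppy* they were 39.4% without treatment, 17.6% with IL-1B, 18.7% with IFNg and 18.2% with both. Over all kept barcodes the share past the insulin limit was also highest without treatment. It was 1975 of 2364 without treatment, 1359 of 2164 with IL-1B, 1567 of 2467 with IFNg and 1504 of 2032 with both. Barcodes with at least 1% *Gcg* numbered 188, 481, 446 and 287 in the same order. The part of this composition in the shares was not tested. The untreated library also had the most insulin in barcodes that should lack it, those with at least 4 detected genes of an endothelial, macrophage or mesenchymal list. Their median insulin share was 0.410% without treatment, 0.0890% with IL-1B, 0.210% with IFNg and 0.0934% with both, at median depths of 12061, 5831, 9565 and 10631 UMIs. At least 2% insulin was reached by 11 of 105 without treatment, 2 of 98 with IL-1B, 2 of 126 with IFNg and 6 of 68 with both, and none of these non-endocrine barcodes was chosen.

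Fewer insulin barcodes lay just under the limit for *Gcg* than for *Ppy*. Among all barcodes over the insulin limit, 266 held at least 1% *Gcg* and 50 held 0.1 to 1%, of which 7 were chosen through another hormone and 43 were not chosen. For *Sst*, 187 held at least 1% and 100 held 0.1 to 1%, of which 37 were chosen through another hormone and 63 were not. For *Ppy*, 238 held at least 1% and 275 held 0.1 to 1%, of which 131 were chosen through *Gcg* or *Sst* and 144 were not. Barcodes that were not chosen and held 0.1 to 1% of the hormone were thus fewer than the pair itself for *Gcg* (43 against 212) and *Sst* (63 against 100), and more for *Ppy* (144 against 129). Barcodes just inside the limits had a second hormone of 1.0% and insulin of 2.09% of UMIs, and those just outside had 0.989% and 1.99%.

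**Figure D1:**
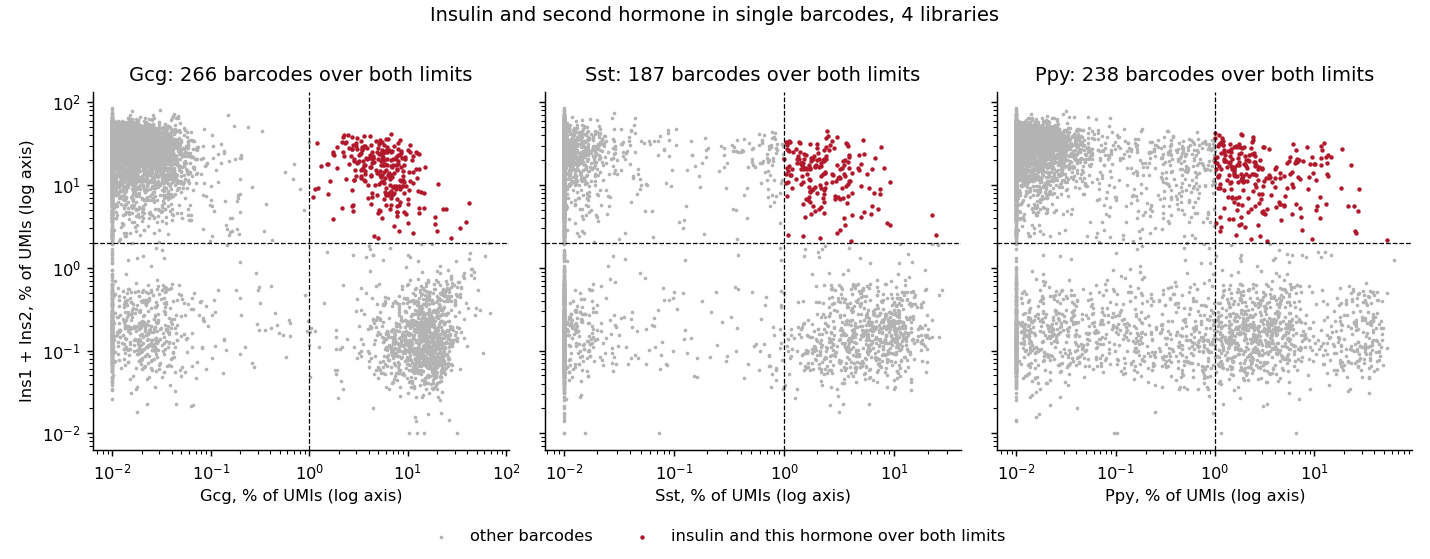
Share of UMIs from *Ins1* and *Ins2* against the share from *Gcg*, *Sst* or *Ppy* in single barcodes of all 4 libraries, on log axes, with values under 0.01% drawn at 0.01% and dashed lines at the limits. Red points pass both limits (266 for *Gcg*, 187 for *Sst*, 238 for *Ppy*), and fewer insulin barcodes lie just under the limit for *Gcg* (50 at 0.1 to 1%) than for *Ppy* (275).

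Ins+Gcg barcodes were deep. Their median was 29761 UMIs without treatment, 12506 with IL-1B, 17519 with IFNg and 17867 with both, against 20210, 8353, 11407 and 12530 UMIs in insulin-only and 11160, 6434, 8157 and 8448 in *Gcg*-only barcodes. The Ins+Gcg median was above both in every library, with a median ratio to insulin only of 1.48 (SD 0.0460, n = 4 libraries). It came to 0.846 to 0.949 of the sum of the insulin-only and *Gcg*-only medians. Total UMIs include the hormones, which the rule used. Counted over UMIs outside the 5 hormone genes, the Ins+Gcg ratio to insulin only was 1.64 without treatment, 1.57 with IL-1B, 1.66 with IFNg and 1.69 with both. Ins+Sst barcodes had medians of 24870 UMIs without treatment, 13621 with IL-1B, 19754 with IFNg and 13271 with both. Their median ratio to insulin only was 1.43 (SD 0.320), lowest with both cytokines at 1.06, and they reached 0.746 to 1.06 of the sum of their single-hormone medians. Outside the hormone genes their ratio was 1.53 without treatment, 1.71 with IL-1B, 1.85 with IFNg and 1.26 with both.

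Ins+Ppy barcodes were shallower than the other pairs. Their median was 17445 UMIs without treatment, 8128 with IL-1B, 8689 with IFNg and 10811 with both, below the insulin-only median in every library, with a median ratio of 0.863 (SD 0.0863). The Ins+Ppy median came to 0.411 to 0.555 of the sum of the insulin-only and *Ppy*-only medians. Insulin is a large part of the UMIs of insulin-only barcodes, with a median of 41.1% without treatment against 20.5% in Ins+Ppy barcodes. Outside the 5 hormone genes the ratio was 1.09 without treatment, 1.05 with IL-1B, 0.871 with IFNg and 0.968 with both, so that it was not below 1 in every library. The ratio of total UMIs also turned above 1 with other limits, to 1.02 with insulin of at least 10% and to 1.54 with a second hormone of at least 5%. Within the pair, depth differed with the *Ppy* share. The 83 barcodes with 1 to 5% *Ppy* had medians of 14409 UMIs without treatment, 7063 with IL-1B, 8179 with IFNg and 8430 with both, a median ratio of 0.715 to insulin only, and ratios of 0.945, 0.961, 0.853 and 0.803 outside the hormone genes. The 46 with 5% or more had medians of 31445 UMIs without treatment, 14379 with IL-1B, 11824 with IFNg and 15738 with both, a median ratio of 1.41 (SD 0.306). Outside the hormone genes their ratios were 1.65, 1.56, 1.13 and 1.38. Of the sum of the insulin-only and *Ppy*-only medians, barcodes with 1 to 5% *Ppy* reached 0.380 to 0.483 and those with 5% or more 0.559 to 0.982. The division at 5% was set with these values in view.

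Detected genes, whose number depends on depth, were compared within each library. The ratio of median detected genes to insulin-only barcodes was 1.39 without treatment, 1.36 with IL-1B, 1.35 with IFNg and 1.41 with both in Ins+Gcg and 1.32, 1.46, 1.51 and 1.19 in Ins+Sst barcodes. It was 1.30, 1.26, 1.04 and 1.19 in Ins+Ppy barcodes with 5% *Ppy* or more and 1.05, 0.912, 0.926 and 0.915 in those with 1 to 5%, the lowest of these classes in each library. Scrublet, a program that scores barcodes by their likeness to summed pairs, called 39 of 9027 barcodes, 0.432%, too few for the caller to have worked, so only its ranking is described. Among the 526 barcodes with the highest scores of their library (5.83% of those kept, since scores tie) were 56.6% (49.6 to 63.4) of Ins+Gcg, 34% (24.8 to 44.2) of Ins+Sst, 8.43% (3.46 to 16.6) of Ins+Ppy barcodes with 1 to 5% *Ppy* and 26.1% (14.3 to 41.1) of those with 5% or more. The share was 4.67% (4.15 to 5.25) of insulin-only and 1.19% (0.571 to 2.17) of *Gcg*-only barcodes. The score is built from the counts that include the hormones and is not independent of the rule.

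**Figure D2:**
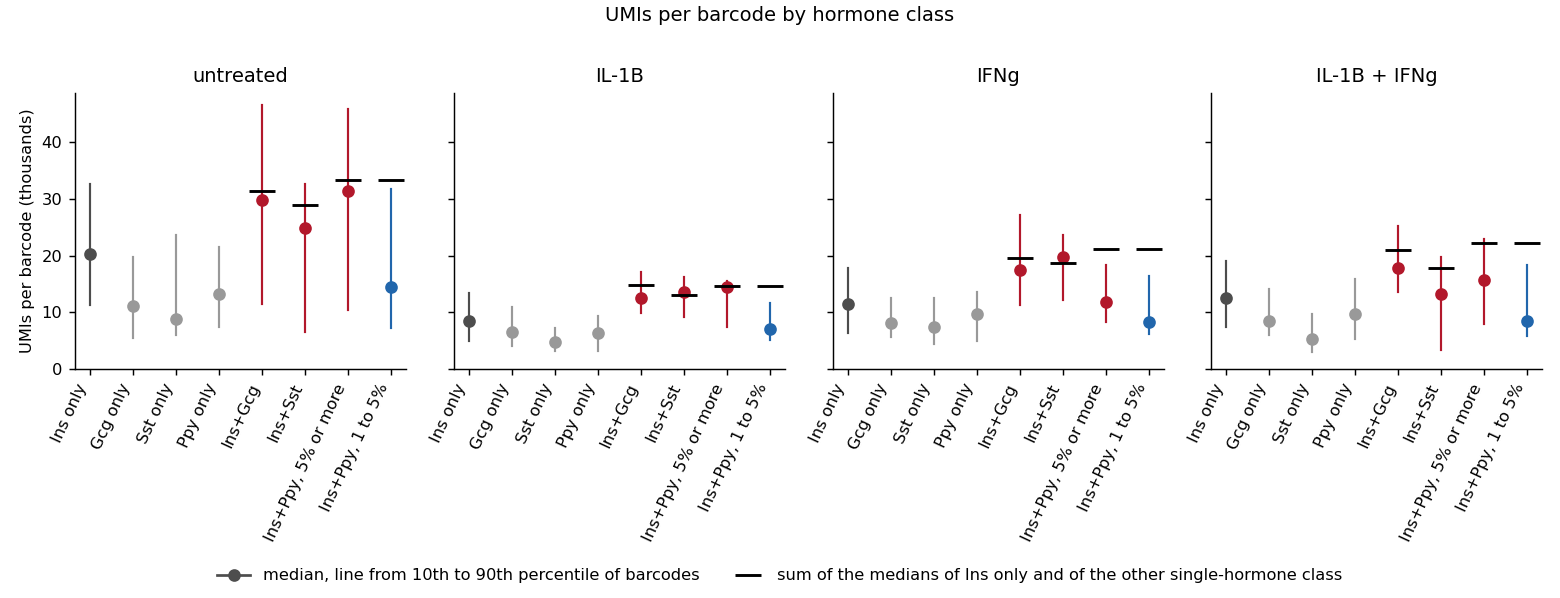
UMIs per barcode by hormone class in each library, with points at the median, lines from the 10th to the 90th percentile of barcodes, and dashes at the sum of the medians of insulin-only barcodes and of the other single-hormone class. Ins+Gcg medians lie above the insulin-only median in all 4 libraries, and those of Ins+Ppy barcodes with 1 to 5% *Ppy* below it.

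Ins+Gcg barcodes carried identity factors of both cell types. *Mafa*, an activator of insulin transcription, was at 624 CPM without treatment, 58.6 with IL-1B, 374 with IFNg and 42.2 with both, which is here the summed UMIs of a gene per 1000000 UMIs outside the 5 hormone genes. It was at 1060.1, 87.3, 642 and 76.4 CPM in insulin-only and 13.8, 0.553, 2.38 and 0 CPM in *Gcg*-only barcodes. *Irx2*, an Iroquois homeobox factor of α-cells, was at 75.9 (59.2 to 96.0) CPM without treatment, 165 (136 to 197) with IL-1B, 88.2 (64.3 to 118) with IFNg and 57.4 (42.4 to 75.9) with both in Ins+Gcg barcodes, with exact Poisson 95% intervals in brackets. It was at 213, 223, 183 and 166 CPM in *Gcg*-only and 2.30, 3.13, 2.71 and 1.69 CPM in insulin-only barcodes. *Irx1*, of the same family, was at 61.8, 57.2, 47.0 and 52.7 CPM in Ins+Gcg, 221, 167, 144 and 147 in *Gcg*-only and 0.360, 0.120, 0.410 and 0.169 in insulin-only barcodes. All 3 genes lay between the single-hormone classes in each library, by more than the counting interval.

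The factors were found in the same barcodes. *Mafa* and *Irx2* were both detected in 69 of 212 Ins+Gcg barcodes, 32.5% (26.3 to 39.3), against 45 of 5842 insulin-only and 15 of 842 *Gcg*-only barcodes. By library the counts were 27 of 47 without treatment, 15 of 69 with IL-1B, 13 of 36 with IFNg and 14 of 60 with both. In *Gcg*-only barcodes they were 9 of 93, 1 of 312, 5 of 286 and 0 of 151. *Mafa* and *Irx1* were both detected in 25.5% (19.8 to 31.9) of Ins+Gcg, 0.137% of insulin-only and 1.43% of *Gcg*-only barcodes. *Nkx6-1*, which represses α-cell genes, was found with *Irx2* in 41.0% (34.3 to 48.0) of Ins+Gcg, 1.45% of insulin-only and 7.24% of *Gcg*-only barcodes.

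Depth affects detection, so each barcode was also thinned to 4000 UMIs, which 205 of 212 Ins+Gcg barcodes reached. Then 44.9% (37.9 to 52.0) held a UMI of both a β list (*Mafa*, *Nkx6-1*, *Slc2a2*, *Ucn3*, *G6pc2*) and an α list (*Irx1*, *Irx2*, *Gc*). By library this was 53.5% without treatment, 61.2% with IL-1B, 36.1% with IFNg and 25.4% with both. The share was 2.68% of 5596 insulin-only, 8.06% of 794 *Gcg*-only and 0.301% of 332 non-endocrine barcodes. Before thinning, these had median depths of 17207, 13041, 7950 and 10723 UMIs, and without thinning the first 3 shares were 89.2%, 7.94% and 18.9%. The Ins+Gcg share was 21.7% at 2000 UMIs and 14.6% at 4000 UMIs with at least 2 UMIs of each list, so that it depends on these settings.

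Each list was present in Ins+Gcg barcodes at a fraction of its level in the class with that hormone alone. The β list was at 0.581 of its insulin-only level without treatment, 0.610 with IL-1B, 0.615 with IFNg and 0.475 with both. The α list was at 0.353 of its *Gcg*-only level without treatment, 0.458 with IL-1B, 0.337 with IFNg and 0.392 with both. The fractions summed to 0.934 without treatment, 1.07 with IL-1B, 0.952 with IFNg and 0.867 with both. Counted per barcode and not per 1000000 UMIs, the β list gave 0.784 to 1.03 times and the α list 0.649 to 0.821 times the UMIs of a barcode with that hormone alone.

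Ins+Sst barcodes carried *Hhex*, which maintains δ-cells. *Hhex* was at 87.3 (62.0 to 119) CPM without treatment, 54.1 (32.6 to 84.5) with IL-1B, 85.7 (54.3 to 129) with IFNg and 30.4 (12.2 to 62.6) with both. It was at 279, 145, 271 and 98.8 CPM in *Sst*-only and 1.53, 0.963, 1.31 and 0.253 CPM in insulin-only barcodes, so that the intervals lay between both classes in each library. *Mafa* and *Hhex* were both detected in 29 of 100 Ins+Sst barcodes, 29% (20.4 to 38.9), against 0.479% of insulin-only and 3.47% of *Sst*-only barcodes. Their median depths were 14905, 12722 and 5935 UMIs. By library the counts were 16 of 27 without treatment, 4 of 31 with IL-1B, 8 of 18 with IFNg and 1 of 24 with both, and *Mafa* itself was low in the libraries with IL-1B. In *Sst*-only barcodes they were 1 of 20, 0 of 59, 3 of 53 and 2 of 41, so that with both cytokines the share was no higher in Ins+Sst.

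The δ list (*Hhex*, *Rbp4*, *Ghsr*, *Spock3*, *Prg4*) was at 0.349 to 0.569 of its *Sst*-only level in Ins+Sst barcodes, and the β list at 0.539 to 0.597 of its insulin-only level. The sums were 1.02 without treatment, 0.946 with IL-1B, 1.13 with IFNg and 0.951 with both. *Rbp4*, a retinol carrier, was at 2278, 1307, 2371 and 1450.0 CPM in Ins+Sst, 4599, 3795, 4056 and 3779 in *Sst*-only and 3321, 1803, 2071 and 2139 in *Gcg*-only barcodes, so that it is not particular to δ-cells here. The δ list was mostly *Rbp4* (2278 of 2392 CPM in untreated Ins+Sst barcodes), so its fractions and sums largely follow that gene. After thinning to 4000 UMIs, both lists were found in 67 of 93 Ins+Sst barcodes, 72.0%, against 6.67% of insulin-only, 6.94% of *Sst*-only and 1.2% of non-endocrine barcodes. By library the Ins+Sst share was 91.7% without treatment, 67.7% with IL-1B, 94.1% with IFNg and 38.1% with both. A UMI of the δ list was also found in 7.63% of insulin-only and 18.4% of non-endocrine barcodes. The Ins+Sst share was 89% without thinning, 45.8% at 2000 UMIs and 49.5% with at least 2 UMIs of each list.

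**Figure D3:**
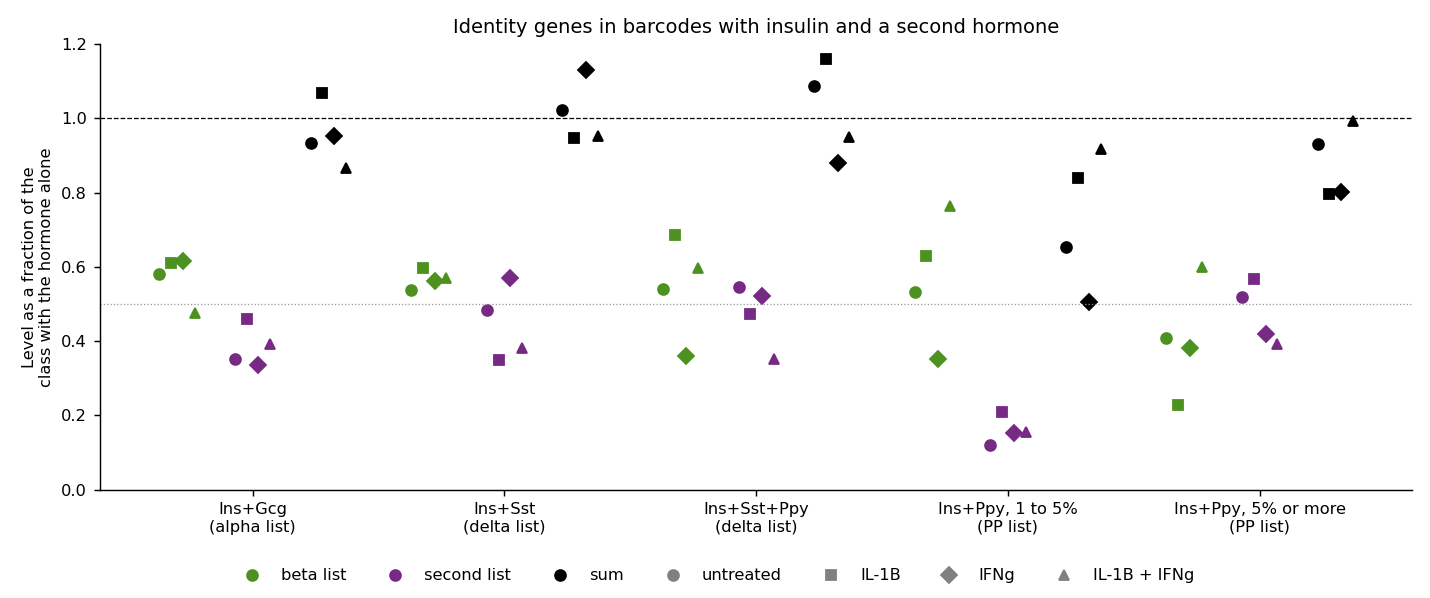
Summed level of identity genes in chosen barcodes as a fraction of their level in the class with that hormone alone, for the β list, for the list of the second cell type and for the sum of both, with 1 marker shape per library. For Ins+Gcg the sums lie between 0.867 and 1.07, for Ins+Sst between 0.946 and 1.13, and for Ins+Ppy barcodes with 1 to 5% *Ppy* between 0.504 and 0.918. The last were cut by their *Ppy* share, and those with 5% *Ppy* or more had sums of 0.795 to 0.992.

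No gene of Ins+Gcg barcodes stood at least 2-fold beyond both single-hormone classes. Of 7335 genes that reached 20 CPM, 0 were 2-fold above the higher class and 0 were 2-fold below the lower class in all 4 libraries, with 5 CPM added to each level (0% called in each direction). Nearest were *Tubb2b*, a tubulin, with a smallest fold of 1.27 above, and *Scrn3* at 1.23 below. For Ins+Sst, compared in the 3 libraries with at least 20 such barcodes, 0 of 7622 genes passed in either direction (0% called). Nearest were *Pvr*, a nectin-like receptor, at 1.46 above and *Zfp574* at 1.67 below. These nearest genes rested on 5 to 32 UMIs a library in Ins+Gcg and 1 to 10 in Ins+Sst barcodes, and were named after their values were seen.

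Most genes that separate the single-hormone classes lay between them. Of genes at least 4-fold apart between insulin-only and *Gcg*-only barcodes, 92.3%, 97.4%, 96.7% and 98.6% lay between those levels in Ins+Gcg barcodes, in the order untreated, IL-1B, IFNg and both. For Ins+Sst the shares were 91.9%, 90.1%, 84.5% and 84.8%. For all Ins+Ppy barcodes they were 90.6%, 72.8%, 87.4% and 82.6%, and for those with 1 to 5% *Ppy* 83%, 69.0%, 73.5% and 66.1%. The last rest on 27, 15, 28 and 13 barcodes, beside 29, 28, 59 and 47 with *Ppy* only. In such small classes counting error can make genes appear 4-fold apart or place levels outside the range. Its part was not tested.

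*Etv1* and the summed PP list were below their *Ppy*-only levels in Ins+Ppy barcodes with 1 to 5% *Ppy*. These barcodes were cut by their *Ppy* share. *Ppy*-only barcodes had median *Ppy* shares of 31.1% without treatment, 21.4% with IL-1B, 29.0% with IFNg and 35.3% with both. The PP list, mostly *Pyy*, was higher with more *Ppy*, so its fraction is not independent of the cut. *Etv1*, a transcription factor of the PP list, was at 86.9 (58.2 to 125) CPM without treatment, 9.68 (0.245 to 53.9) with IL-1B, 72.2 (41.3 to 117) with IFNg and 9.03 (0.229 to 50.3) with both, against 359, 167, 438 and 96.8 CPM in *Ppy*-only and 18.1, 11.6, 27.1 and 5.82 in insulin-only barcodes. Its interval lay below the *Ppy*-only level in each library, and it held the insulin-only level in both libraries with IL-1B. With 5% *Ppy* or more, *Etv1* was at 155 CPM without treatment, 89.8 with IL-1B, 93.2 with IFNg and 47.6 with both. The PP list (*Pyy*, *Etv1*, *Tspan8*) was at 0.121 of its *Ppy*-only level without treatment, 0.210 with IL-1B, 0.152 with IFNg and 0.156 with both in barcodes with 1 to 5% *Ppy*, and at 0.520, 0.567, 0.420 and 0.393 with 5% or more. With 1 to 5% *Ppy* the β list was at 0.532 of its insulin-only level without treatment, 0.628 with IL-1B, 0.352 with IFNg and 0.763 with both. The fractions of both lists summed to 0.653, 0.838, 0.504 and 0.918 with 1 to 5% and to 0.929, 0.795, 0.801 and 0.992 with 5% or more. *Tspan8*, a tetraspanin, was at 299.8, 261, 244 and 370.4 CPM with 1 to 5% *Ppy*, 816, 1110.3, 1217 and 928 in *Ppy*-only and 27.4, 47.9, 27.9 and 30.8 in insulin-only barcodes. After thinning to 4000 UMIs, both lists, the PP list being mostly *Pyy*, were found in 62 of 81 barcodes with 1 to 5% *Ppy*, 76.5% (65.8 to 85.2), against 22.8% of insulin-only, 32% of *Ppy*-only and 1.51% of non-endocrine barcodes. Without thinning the shares were 90.4%, 52.1%, 46.0% and 5.79%, at median depths of 9040, 12722, 9473 and 9453 UMIs. A UMI of the PP list was also found in 25.5% of insulin-only and 25% of non-endocrine barcodes after thinning. The factors were counted without thinning and over all Ins+Ppy barcodes, not in those with 1 to 5% *Ppy* alone. *Nkx6-1* and *Etv1* were both detected in 32.6% (24.6 to 41.4) of all Ins+Ppy barcodes, 31.9% (24.8 to 39.6) of *Ppy*-only and 10.0% (9.29 to 10.8) of insulin-only barcodes.

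*Nkx6-1* was near the insulin-only level in these barcodes except with both cytokines, and *Mafa* was below it except with IL-1B. *Nkx6-1* was at 309 (252 to 375) CPM without treatment, 165 (95.8 to 263) with IL-1B, 284 (219 to 364) with IFNg and 289 (198 to 408) with both, against 371, 162, 274 and 136 CPM in insulin-only and 176, 76.0, 112 and 54.4 in *Ppy*-only barcodes. The interval held the insulin-only level except with both cytokines, where it lay above. *Mafa* was at 471 (399.9 to 550.3) CPM without treatment, 58.1 (21.3 to 126) with IL-1B, 99.3 (62.3 to 150.4) with IFNg and 9.03 (0.229 to 50.3) with both, against 1060.1, 87.3, 642 and 76.4 CPM in insulin-only barcodes. Its interval lay below the insulin-only level except with IL-1B, where it held it. The median *Mafa* level per barcode was 153 CPM without treatment, 0 with IL-1B, 0 with IFNg and 0 with both, against 751, 0, 317 and 0 CPM in insulin-only barcodes between the 10th and 90th percentile of the same depth.

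*Chga*, which encodes the granule protein chromogranin A, was above both single-hormone classes. It was at 12406 (12031 to 12789.6) CPM without treatment, 10046 (9444 to 10676) with IL-1B, 11189 (10752 to 11638) with IFNg and 12005 (11368 to 12668) with both in barcodes with 1 to 5% *Ppy*. Insulin-only barcodes had 8801, 4533, 6271 and 5556 CPM and *Ppy*-only barcodes 2544, 2928, 1765 and 2210.4 CPM, so that each interval lay above both. The median barcode had 13328 CPM without treatment, 8544 with IL-1B, 9687 with IFNg and 12738 with both, against 8222, 4043, 5637 and 5038 CPM in insulin-only barcodes of the same depth range. *Chga* exceeded the 90th percentile of the insulin-only barcodes of its library in 35 of 83 barcodes, 42.2% (31.4 to 53.5). In Ins+Gcg barcodes *Chga* was at 6399, 4046, 5027 and 4358 CPM and in Ins+Sst barcodes at 6515, 3174, 5177 and 5344 CPM, below the insulin-only level in each library, except that with both cytokines the Ins+Sst interval (5050 to 5651) held it.

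Other islet peptides differed as well. *Pyy* was at 22044 CPM without treatment, 13501 with IL-1B, 20657 with IFNg and 15591 with both in barcodes with 1 to 5% *Ppy*, between 595, 489, 760.3 and 404 CPM in insulin-only and 184909, 64268, 136434 and 101386 CPM in *Ppy*-only barcodes. *Iapp*, the amylin gene, was at 77959.9 CPM without treatment, 110808 with IL-1B, 71773 with IFNg and 72905 with both, against 93277, 80343, 79966 and 64779 CPM in insulin-only barcodes, lower in the untreated and IFNg libraries and higher in both libraries with IL-1B. Per 1000 insulin UMIs, *Iapp* gave 207, 761, 432 and 303 UMIs, against 130.3, 293, 207 and 134 in insulin-only barcodes. *Ins1* gave 25.5% (25.2 to 25.7), 20.9% (20.2 to 21.5), 21.9% (21.5 to 22.3) and 23.0% (22.5 to 23.5) of insulin UMIs, against 29.8%, 27.8%, 29.6% and 24.9%, lower in each library. *Ins1* and *Ins2* are closely related genes, the split of reads between them was not checked, and insulin itself was used by the rule.

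Barcodes just under the *Ppy* limit were also described. Of the 144 that held 0.1 to 1% *Ppy* and were not chosen, the 92 with less than 0.1% *Gcg* and less than 0.1% *Sst* had a median ratio of depth to insulin-only barcodes of 0.789 (SD 0.115), and ratios of 0.79 to 0.99 outside the hormone genes. Their *Chga* was at 12214 CPM without treatment, 8878 with IL-1B, 11062 with IFNg and 8401 with both, and their *Mafa* at 346, 0, 63.0 and 15 CPM. These barcodes share none with the chosen ones, and their limits were set after the values were seen.

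**Figure D4:**
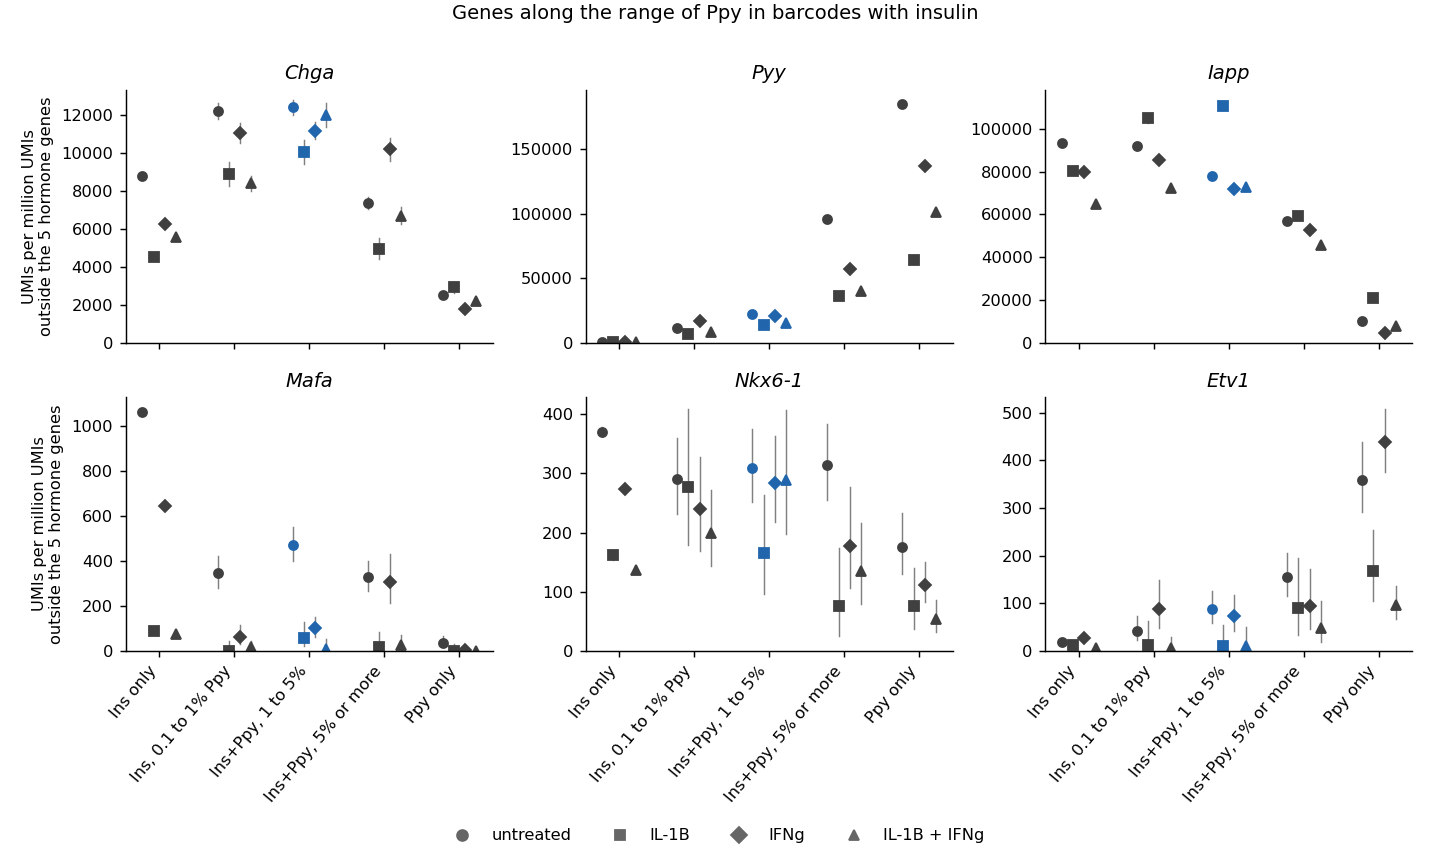
Levels of 6 genes, in UMIs per 1000000 UMIs outside the 5 hormone genes, in barcode classes ordered by their *Ppy* share, with 1 marker shape per library and exact Poisson 95% lines. *Chga* in Ins+Ppy barcodes with 1 to 5% *Ppy* lies above insulin-only and *Ppy*-only barcodes in all 4 libraries, and *Etv1* lies below *Ppy*-only barcodes.

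No gene passed the 2-fold limit in Ins+Ppy barcodes, with 0 of 7336 genes in either direction (0% called), nor in those with 1 to 5% *Ppy*, with 0 of 7420 (0% called). The latter had 15 barcodes with IL-1B and 13 with both, and were compared with a minimum of 10 barcodes a library, set after the data were seen. At 1.5-fold, 6 of 7420 genes lay above both classes in all 4 libraries, 0.0809% called, and 0 below. They were *H2-Q7*, a class I histocompatibility gene (1.69), *Gm45486* (1.66), *Gbp8*, a guanylate binding protein (1.58), *Serping1*, the C1 complement inhibitor (1.57), *Hap1* (1.56) and *Soat1*, a cholesterol esterifying enzyme (1.52), with the smallest fold in brackets. *Gm45486* rested on 9, 3, 6 and 2 UMIs, and *Gbp8* on 4 without treatment. The interval lay above both class levels in each library for *H2-Q7* and *Serping1*, and not in each library for the other 4. *H2-Q7* and *Gbp8* belong to families of near-identical genes and are uncertain. *Serping1* was at 162 CPM without treatment, 474 with IL-1B, 655 with IFNg and 650.4 with both, against 75.3, 185, 318 and 349 CPM in insulin-only and 101, 205, 407 and 311 CPM in *Ppy*-only barcodes. These 6 genes were named after their values were seen.

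Most barcodes with several second hormones held *Sst* and *Ppy*. Of the 122, 68 held insulin, *Sst* and *Ppy*, 35 insulin, *Gcg* and *Ppy*, 13 insulin, *Gcg* and *Sst*, and 6 all of them. *Ppy* was also frequent without insulin: 68.8% (65.3 to 72.2) of 721 *Sst* barcodes without insulin passed the *Ppy* limit, against 39.6% (32.5 to 47.0) of 187 with insulin. In *Gcg* barcodes the shares were 21.3% (19.0 to 23.8) of 1136 and 15.4% (11.3 to 20.3) of 266. By library the *Gcg* shares with insulin were 19.7% without treatment, 10% with IL-1B, 25% with IFNg and 11.1% with both, against 22.1%, 16.7%, 22.9% and 26.5% without insulin, so that the order turned with IFNg. Ins+Sst+Ppy barcodes had a median ratio of depth to insulin-only barcodes of 1.37 (SD 0.0826), and identity fractions that summed to 0.881 to 1.16. Pairs without insulin differed in the same ratio. The 427 barcodes with *Sst* and *Ppy* had a median ratio of 0.552 (SD 0.0766), the 173 with *Gcg* and *Ppy* 0.872 (SD 0.0258) and the 52 with *Gcg* and *Sst* 1.29 (SD 0.229). The last had 2 barcodes without treatment, and its ratio with both cytokines was 0.987. *Gcg*-only barcodes had 0.695 and *Sst*-only barcodes 0.498.

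The chosen barcodes of the treated libraries carried cytokine-induced genes. *Nos2*, which encodes inducible nitric oxide synthase, was at 0 CPM without treatment, 107 with IL-1B, 0 with IFNg and 641 with both in Ins+Gcg barcodes, where 0 UMIs allow up to 3.25 CPM without treatment and 5.88 with IFNg. It was at 0, 169, 2.95 and 947 CPM in insulin-only and 0, 40.3, 4.28 and 194 CPM in *Gcg*-only barcodes, so that Ins+Gcg lay between them with IL-1B and with both. In Ins+Sst barcodes *Nos2* was at 179 CPM with IL-1B and 925 with both, against 108 and 602 in *Sst*-only barcodes. *Cxcl10*, a chemokine that draws T cells, was at 3148 (3029.7 to 3269) CPM in Ins+Gcg barcodes with both cytokines, between 3905 CPM in insulin-only and 1974 in *Gcg*-only barcodes. In Ins+Ppy barcodes with 1 to 5% *Ppy* it was at 1852 (1607 to 2123) CPM, below insulin-only and *Ppy*-only barcodes (4702 CPM).

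The other cytokine genes differed by library. *Iigp1*, an interferon-induced GTPase, was at 9.76 CPM without treatment, 0 with IL-1B, 1996 with IFNg and 877 with both in Ins+Gcg barcodes. *Gbp2*, a guanylate binding protein, was at 6.51 CPM without treatment, 275 with IL-1B, 895 with IFNg and 2502 with both, and *Sod2*, which detoxifies superoxide, at 155, 1165, 133 and 1241 CPM. *Iigp1* was thus highest with IFNg, *Gbp2* with both, and *Sod2* in the libraries with IL-1B. *Defb1*, a β-defensin, was at 32.5 CPM without treatment, 770.3 with IL-1B, 72.5 with IFNg and 999 with both in Ins+Gcg barcodes and at 261, 1336, 185 and 1734 CPM in Ins+Ppy barcodes with 1 to 5% *Ppy*, where insulin-only barcodes had 39.1, 1257, 85.5 and 1254 CPM. The 9 listed cytokine-induced genes summed to 305 CPM without treatment, 2608 with IL-1B, 3629 with IFNg and 11516 with both in the chosen barcodes, and to 259, 3457, 3398 and 12689.6 CPM in insulin-only barcodes.

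**Figure D5:**
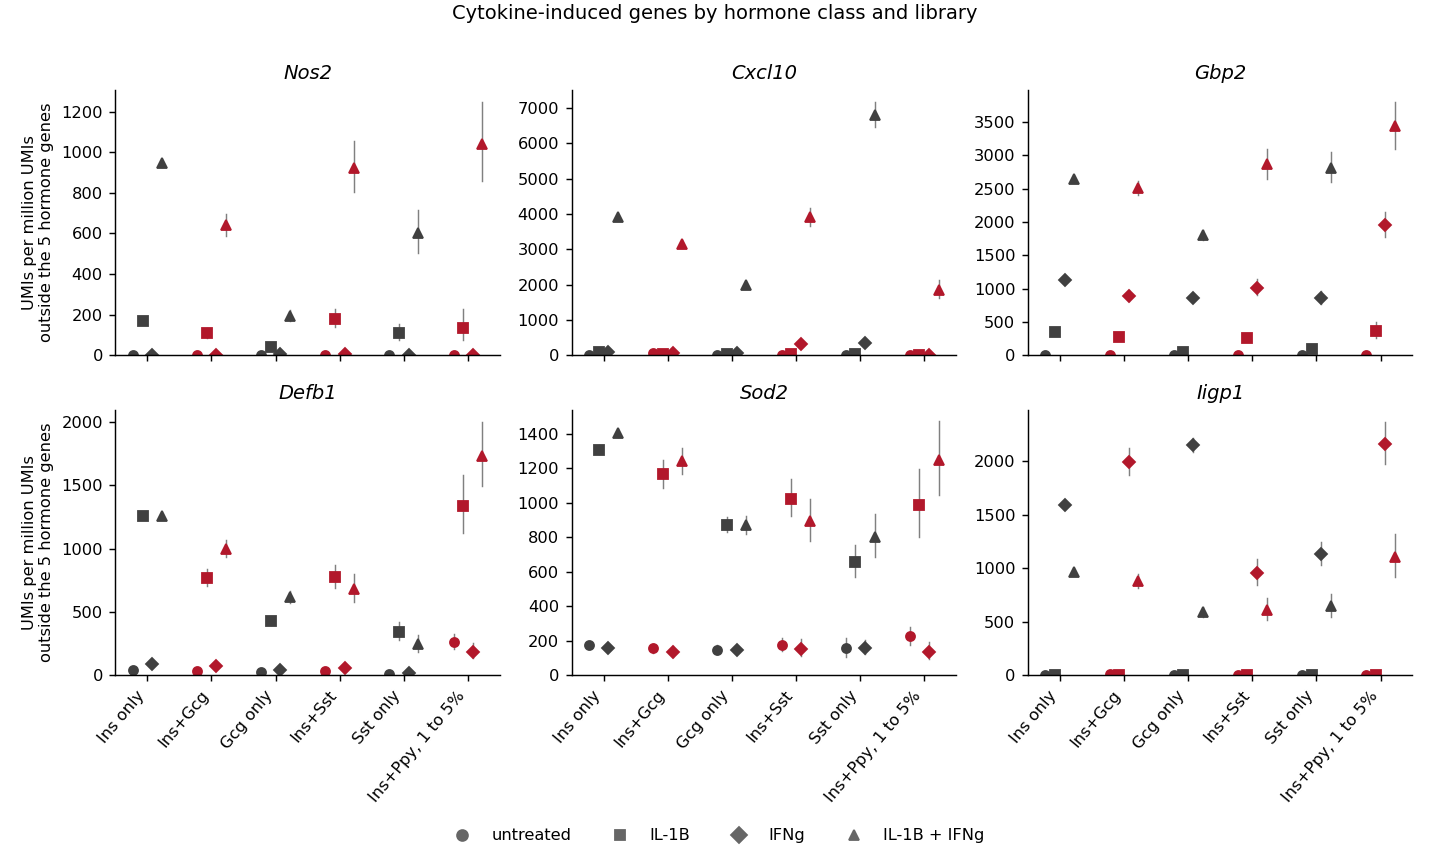
Levels of 6 cytokine-induced genes by hormone class, in UMIs per 1000000 UMIs outside the 5 hormone genes, with 1 marker shape per library and exact Poisson 95% lines. In Ins+Gcg barcodes with both cytokines, *Nos2* (641) and *Cxcl10* (3148) lie between the insulin-only and *Gcg*-only levels.

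Granule and progenitor genes also differed between the pairs. The 9 genes of prohormone processing and granules summed to 18825 CPM without treatment, 17819 with IL-1B, 18712 with IFNg and 16209 with both in all chosen barcodes and to 26113, 26780.1, 23086 and 25301 CPM in Ins+Ppy barcodes with 1 to 5% *Ppy*, against 19775, 15889, 16660.4 and 14949 CPM in insulin-only barcodes. The list includes *Chga*, its most abundant gene in the untreated chosen barcodes, so the sum is not independent of the *Chga* levels above. *Pcsk1*, which cleaves proinsulin, was at 276, 194, 176 and 208 CPM with 1 to 5% *Ppy* and at 280.4, 214, 251 and 195 CPM in insulin-only barcodes. In the untreated library *Neurog3*, the factor of endocrine progenitors, was at 86.3 CPM in Ins+Sst+Ppy, 55.9 in Ins+Sst and 137 in *Sst*-only barcodes. It was lower there in Ins+Gcg (8.68 CPM) and insulin-only barcodes (5.23 CPM). With both cytokines *Neurog3* rested on at most 3 UMIs in each of these classes. The 6 cycling genes summed to at most 3.48 CPM in the chosen barcodes of any library. The 4 heat shock genes, of which *Hspa1a* and *Hspa1b* are near-identical copies, summed to 299 CPM without treatment, 521 with IL-1B, 743 with IFNg and 1477 with both, against 259, 837, 618 and 945 CPM in insulin-only barcodes. Without treatment they were at 1002 CPM in Ins+Sst, 189 in Ins+Gcg, 182 in Ins+Ppy and 199.8 in Ins+Sst+Ppy barcodes, so that Ins+Sst stood above insulin-only barcodes and the other 3 classes below them. These values by pair are of the untreated library only, with 27 Ins+Sst barcodes. Whether a few barcodes held most of the UMIs was not checked.

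Markers of other cell types were given by list over all chosen barcodes. The 8 endothelial markers summed to 15 CPM without treatment, 11.8 with IL-1B, 14.3 with IFNg and 7.94 with both, with *Cdh5* at 0 in each library and *Esam* or *Egfl7* the most abundant. The 7 macrophage markers summed to 111, 47.2, 52.5 and 133 CPM, mostly *C1qa*, with *Adgre1* at 0 in each library, against 154, 61.2, 66.0 and 223 CPM in insulin-only barcodes. The 7 mesenchymal markers summed to at most 12.3 CPM, with *Pdgfra* at 0 in each library.

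The ductal list was higher than these in each library, and the acinar list varied between libraries. The 5 ductal markers summed to 2159.6 CPM without treatment, 2632 with IL-1B, 849 with IFNg and 1181 with both, with *Spp1*, which encodes osteopontin, the most abundant. *Spp1* was at 4433, 4219, 1107 and 1527 CPM in Ins+Gcg, 2955, 10039, 3934 and 5061 in *Gcg*-only and 35.4, 92.7, 33.4 and 40.0 in insulin-only barcodes, so that Ins+Gcg lay above both classes without treatment and between them in the treated libraries. The 6 acinar markers summed to 125, 43.9, 785 and 43.4 CPM, and to 2922 CPM in the 18 Ins+Sst barcodes with IFNg. The part of other cell types in the values above was not tested.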

How the data were processed

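The deposited files were matrices of raw UMI counts per gene and barcode from the authors, made with Cell Ranger on mm10 per the labels, with software version 3.0.0 in the matrix headers. The libraries held 50731370 UMIs without treatment, 20056630 with IL-1B, 31209339 with IFNg and 25716645 with both, over 31053 genes. Levels were UMIs summed per library and class, per 1000000 UMIs outside the 5 hormone genes, since 1 library per condition allowed no count model. Intervals were exact at 95%, and 0 counts were read as at most 3. Doublets were kept. Scrublet (scanpy 1.11.5, expected rate 0.05) was run only as an alternative. Other tools were Python 3.11.15, numpy 2.4.6, pandas 2.3.3, scipy 1.17.1, anndata 0.12.19 and matplotlib 3.10.9.

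The members and lists were chosen with earlier results of these data known. Some listed genes are not reported here, and the α, PP and macrophage lists were recomputed without them after the data were seen. *Irx1*, *Irx2*, *Etv1* and *Tspan8* were picked for description after their values were seen. Named genes were the listed genes and the 10 called genes with the largest smallest fold in each direction. None was called, and the nearest genes were named instead. Alternatives were other limits on genes, mitochondrial share, insulin and second hormone, other scaling, pseudocount, filter, fold and thinning, and doublet removal. Removal of the highest Scrublet scores, ratios per pair and the Ins+Ppy comparisons were added after the data were seen.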

Additional observations from a re-analysis of the deposited data

Results flagged for a closer look

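In Ins+Ppy barcodes with 1 to 5% *Ppy*, the ratio of median detected genes to insulin-only barcodes was 1.05 without treatment, far from the other 3 libraries. Of 39 groups of 4 libraries, 1 stood apart in this way, which is no more than the about 1 in 20 that chance gives.

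The ratio of median UMIs to insulin-only barcodes was above 1 in all 4 libraries for Ins+Gcg (median 1.48) and below 1 in all 4 for Ins+Ppy (median 0.863). Total UMIs include insulin, which the rule used. Outside the 5 hormone genes the ratio was 1.64 without treatment, 1.57 with IL-1B, 1.66 with IFNg and 1.69 with both for Ins+Gcg, and 1.09, 1.05, 0.871 and 0.968 for Ins+Ppy, which was thus below 1 only with IFNg and with both. With other limits the Ins+Ppy ratio of total UMIs was above 1, at 1.02 with insulin of at least 10% and 1.54 with a second hormone of at least 5%. The difference was not tested.

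Outside the kept barcodes, 41 of 1739 barcodes over the mitochondrial limit met the hormone rule, 2.36%, with a median of 2851 UMIs.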

How the results depend on the processing

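With at most 4000 genes, members numbered 288, Ins+Gcg 109, Ins+Sst 48 and barcodes with 2 or 3 other hormones 41. The depth ratio to insulin only was then 0.99 for members, below 1 where it had been 1.36, 1.2 for Ins+Gcg and 0.720 for Ins+Ppy, and the gene ratio 1.09. This limit removes the barcodes with most genes and is in the study's filter to remove doublets. With insulin of at least 10%, barcodes with 2 or 3 other hormones numbered 78, and depth ratios were 1.44 for members, 1.58 for Ins+Gcg, 1.02 for Ins+Ppy, above 1 where it had been 0.863, and 0.804 with 1 to 5% *Ppy*. With a second hormone of at least 5%, members numbered 237, Ins+Sst 20, Ins+Ppy 55 and barcodes with 2 or 3 other hormones 5, and depth ratios were 1.42 for Ins+Gcg and 1.54 for Ins+Ppy, again above 1. Without the highest Scrublet scores, members numbered 348, Ins+Gcg 92, Ins+Sst 66 and barcodes with 2 or 3 other hormones 80, the gene ratio was 1.30 and the Ins+Gcg depth ratio 1.41. The share with both identity lists was 89.2% in Ins+Gcg and 89.0% in Ins+Sst without thinning, 21.7% and 45.8% at 2000 UMIs, and 14.6% and 49.5% with at least 2 UMIs of each list. Genes beyond both classes in Ins+Sst numbered 1 with a pseudocount of 1, 2 at 1.5-fold and 3 with insulin of at least 10%, in 2 libraries. With 1 to 5% *Ppy* they numbered 6 at 1.5-fold and 18 with insulin of at least 10%, in 2 libraries. The cause was not tested. Of 91 alternative values, 55 stayed within their spread or limit, 33 moved and 3 changed direction. A count stayed if it was within 1.5-fold of its main value, as for 389 members against 563 with insulin of at least 10%. A ratio stayed if within the SD over the 4 libraries, which differ in treatment, and a share if within its 95% interval. A further 27 values were left out of this count, those without barcodes found in several libraries, of which none was chosen, and those without the few barcodes Scrublet called. No paired analysis between conditions was possible because each condition had 1 library, and classes of barcodes were compared within libraries. Depth limits rare transcripts: in the IL-1B library, 0 UMIs in the 15 barcodes with 1 to 5% *Ppy* allow up to 29.0 CPM.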
